A study of Mus musculus with 5 samples.

Results

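Alpha cells, the glucagon-secreting cells of the pancreatic islet, were followed in single-cell RNA libraries of mouse islets. They were taken as all cells annotated "alpha" in the deposited cell table. There were 3146 of them among 18221 cells, 2033 in the deposited cluster 2 and 1113 in cluster 8, and both clusters held alpha cells alone. Gcg, the gene for glucagon, is the defining alpha cell marker. Expression per gene was not analysed here, so the annotation was not checked against it.

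The mice carried a floxed Atf6a gene, which encodes ATF6α, a transcription factor activated when unfolded proteins accumulate in the endoplasmic reticulum. Controls (ATF6a Control, Atf6afl/fl) had the floxed alleles without Cre. Knockouts (ATF6a cKO, RIP-Cre;Atf6afl/fl, also written ATF6αβKO in the labels) in addition carried Cre under a rat insulin promoter, which acts mainly in beta cells. From 6 weeks of age the mice ate a normal diet (10% of energy from fat) or a high-fat diet (60%), up to 22 weeks of age. Each of the 5 libraries pooled islets of 2 mice. Controls on either diet and cKO mice on the high-fat diet were each represented by 1 library, prepared in batch 1. For cKO mice on normal diet there was 1 library in batch 1 and another in batch 2.

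Glucagon raises blood glucose by driving glucose release from the liver. Insulin from beta cells and somatostatin from delta cells restrain its secretion. In the mouse islet alpha cells lie mainly in the mantle around a beta cell core, with delta cells and PP cells, which secrete pancreatic polypeptide.

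The libraries held 7998 (control, normal diet), 6667 (control, high-fat), 2483 (cKO, high-fat), 40 (cKO, normal diet, batch 1) and 1033 cells (cKO, normal diet, batch 2). No alpha, delta or PP cells were among the 40 cells of the smallest library, which allows an alpha share of up to 7.50% by the limit of 3 counts (8.81% by the exact interval). Ratios that involve alpha cells on normal diet in cKO mice therefore rest on the batch 2 library. A second library with alpha cells was lacking in every group, so the spread between replicates is unknown for them, and batch 2 cannot be told apart from the cKO normal-diet group. Intervals are 95% counting intervals (exact Clopper-Pearson for shares and number ratios, delta method for log2 ratios). They cover counting error only, not differences between mice or preparations, and fewer cells of a type in the islet and poorer recovery of that type cannot be told apart. Of the cells, 280 (1.54%) had a barcode that occurred in more than 1 library, 36 of them alpha cells (1.14% of alpha cells).

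Alpha cells outnumbered delta cells in both control libraries and were about as many as delta cells in both cKO libraries with alpha cells. There were 2.04 alpha cells per delta cell (1.88 to 2.20) in the control normal-diet library, from 1925 alpha and 945 delta cells. The control high-fat library had 1.78 (1.58 to 2.01), from 773 and 434 cells. The cKO normal-diet library of batch 2 had 1.08 (0.920 to 1.27), from 322 and 298 cells. In the cKO high-fat library the ratio was 0.984 (0.764 to 1.27), from 126 and 128 cells. Both cKO libraries thus lay below both control libraries, and their intervals did not overlap those of the controls.

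On the high-fat diet, where both genotypes were of batch 1, the log2 ratio of alpha per delta cell (cKO over control) was -0.86 (-1.25 to -0.46). On normal diet, across batches, it was -0.91 (-1.17 to -0.66). The diet contrast was smaller within each genotype, with a log2 ratio (high-fat over normal) of -0.19 (-0.40 to 0.01) in control mice and -0.13 (-0.56 to 0.29) in cKO mice. The ratio of these diet ratios was 0.06 on the log2 scale (-0.41 to 0.53). Such intervals excluded 0 for 66.7% of the 6 pairs of endocrine types for genotype on the high-fat diet, and for 83.3% on normal diet. For diet they did so for 50% of the pairs in control and 50% in cKO mice. An interval that excludes 0 was therefore common among pairs of types.

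Per PP cell the alpha cells showed the same order of genotypes with wider intervals. There were 5.94 alpha cells per PP cell (5.28 to 6.70) in the control normal-diet and 5.26 (4.40 to 6.32) in the control high-fat library. The cKO libraries had 3.79 (2.97 to 4.87) on normal diet and 3.82 (2.59 to 5.79) on the high-fat diet. The log2 ratio of cKO over control was -0.65 (-1.03 to -0.26) on normal diet and -0.46 (-1.07 to 0.15) on the high-fat diet, where 33 PP cells limit it. Delta cells per PP cell were between 2.92 and 3.88 in these libraries, and both genotype intervals of their log2 ratio included 0.

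Among the alpha, delta and PP cells together, alpha cells made up 60.3% (58.5 to 62.0%) and 57.1% (54.4 to 59.7%) in the control libraries on normal and high-fat diet. They made up 45.7% (42.0 to 49.4%) and 43.9% (38.1 to 49.9%) in the cKO libraries. Delta cells took up most of the difference, at 29.6% and 32.1% in control and 42.3% and 44.6% in cKO libraries. PP cells were between 10.1% and 12.1% in all of them. Because these shares have a fixed sum, the higher delta share is not independent of the lower alpha share. The mean alpha share was 44.8% ± 1.25 (SD, n = 2) in cKO and 58.7% ± 2.25 (SD, n = 2) in control libraries. The libraries of each genotype differ in diet, so these SDs are not a spread between replicates. The difference was -13.9 percentage points with a two-sided exact permutation p = 0.333, the smallest that 2 against 2 libraries allow (adjusted p = 0.583 over 7 measures). Leaving out any 1 of the 4 libraries gave -15.5 to -12.3 percentage points. The sign could not change, since the cKO and control shares did not overlap, so this lends no support. The diet difference in this share was -2.48 percentage points (exact permutation p = 0.667, adjusted p = 0.933).

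**Figure D1:**
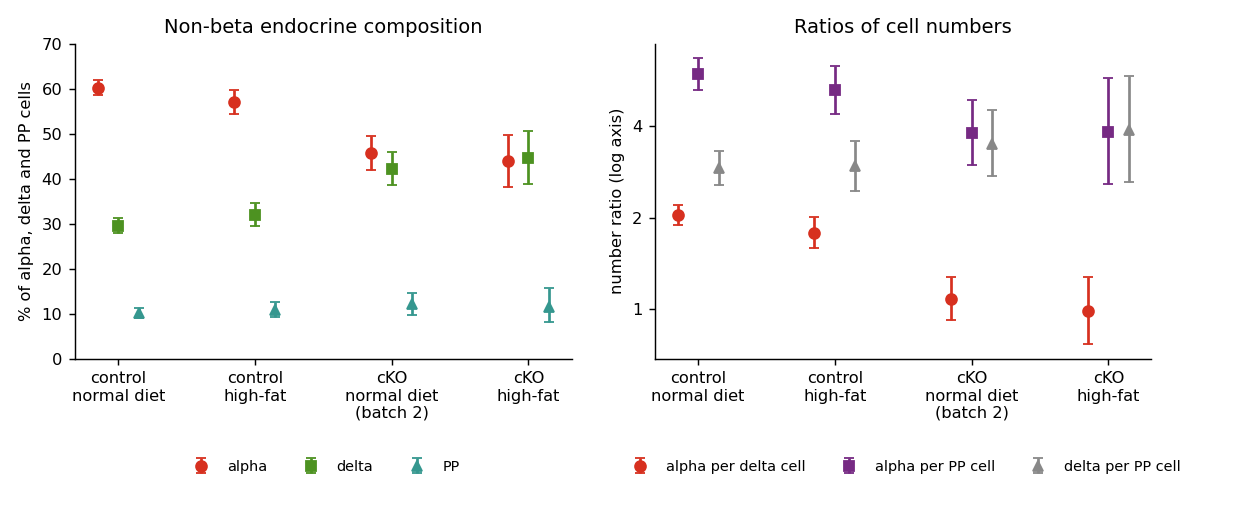
Left, alpha, delta and PP cells as a percentage of their sum in each library; right, ratios of cell numbers on a log axis. Points are libraries and bars are exact 95% counting intervals; alpha cells per delta cell are near 2.04 and 1.78 in the control libraries and near 1.08 and 0.984 in the cKO libraries.

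With beta cells in the denominator the picture on normal diet was the opposite. The batch 2 cKO normal-diet library had 236 beta cells and 1.36 alpha cells per beta cell (1.15 to 1.62). The control normal-diet library had 0.437 (0.414 to 0.461), the control high-fat library 0.160 (0.148 to 0.172) and the cKO high-fat library 0.0602 (0.0499 to 0.0721). The alpha share of all endocrine cells was 34.2% for the batch 2 library and 25.3% in the control normal-diet library, a log2 ratio of 0.43 (0.29 to 0.57). The lower alpha share of cKO mice on normal diet therefore held only when beta cells were left out. On the high-fat diet it held with either denominator, at 5.29% against 12.5% of endocrine cells.

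The count also depended on which cells were called alpha. In the cKO high-fat library, 263 cells of other types had mostly alpha cells among their 30 nearest neighbours in the deposited UMAP embedding, against 126 annotated alpha cells. They were 11.2% (9.91 to 12.5%) of that library's non-alpha cells, and 209 of them were beta cells of cluster 3 and 45 of cluster 9. In the control libraries such cells were 73 (1.20%, normal diet) and 44 (0.747%, high-fat) beside 1925 and 773 alpha cells. The batch 2 cKO normal-diet library had 40 (5.63%) beside 322. With each cell renamed by the most frequent type among its 30 neighbours, a setting chosen after the data were seen, 290 other cells of the cKO high-fat library became alpha. The alpha share of alpha, delta and PP cells then was 68.2% (64.3 to 71.9%) there and 53.8% (51.2 to 56.4%) in the control high-fat library. The log2 ratio turned from -0.38 (-0.58 to -0.18) to 0.34. On normal diet it changed little, from -0.40 (-0.52 to -0.28) to -0.39. The sign of the high-fat genotype difference thus depended on this renaming, in which the neighbours came from all libraries. Renaming by neighbours of the own library was not tested. With alpha cells of mostly non-alpha neighbours left out instead, the log2 ratio on the high-fat diet was -0.39.

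Among all annotated alpha cells, cluster 8 made up about the same share in the 3 batch 1 libraries that hold alpha cells, and a larger share in the batch 2 library. It was 33.3% (31.2 to 35.5%; 641 of 1925 cells) in the control normal-diet library and 31.8% (28.6 to 35.2%; 246 of 773) in the control high-fat library. The cKO high-fat library had 31.0% (23.0 to 39.8%; 39 of 126), and the batch 2 cKO normal-diet library 58.1% (52.5 to 63.5%; 187 of 322). Its interval lies above those of the other libraries.

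Within batch 1, the log2 ratio of the cluster 8 share was -0.07 (-0.24 to 0.11) for diet in control mice and -0.04 (-0.44 to 0.36) for genotype on the high-fat diet. Contrasts with the batch 2 library were 0.80 (0.64 to 0.96) for genotype on normal diet and -0.91 (-1.31 to -0.51) for diet in cKO mice. The ratio of diet ratios, cKO over control, was -0.84 (-1.28 to -0.41). The comparison depended on the alpha cells counted. As an alternative, only those with at least 90% alpha cells among their neighbours from all libraries were kept. The diet ratio in control mice was then -0.60 (-0.79 to -0.41). Among the cells kept, cluster 8 was thus lower on the high-fat diet. Before this filter, non-alpha neighbours of cluster 2 cells were 23.3% in the control normal-diet and 11.9% in the control high-fat library. For cluster 8 cells they were 13.6% and 13.1%. Whether this difference in cluster 2 bears on the diet ratio was not tested. With the filter, the ratio of diet ratios was -0.45 (-0.91 to 0.01), an interval that includes 0. Genotype on the high-fat diet gave 0.02 (-0.41 to 0.46). For comparison, the share of a beta cluster among beta cells had an interval excluding 0 in 83.3% of the 6 beta clusters for diet in control mice and in 100% for genotype on the high-fat diet. It did so in 100% for genotype on normal diet and in 50% for diet in cKO mice. The diet difference pooled over genotypes was -14.3 percentage points (31.4% ± 0.616 on high-fat against 45.7% ± 17.5 on normal diet, SD, n = 2 each). Its two-sided exact permutation p was 0.333, adjusted p = 0.933 over 7 measures. The libraries of each diet differ in genotype, so these SDs are not a spread between replicates. Without the batch 2 library the diet difference was -1.91 percentage points, and without the control normal-diet library it was -26.7.

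The clusters also differed in their numbers per delta cell. Cluster 2 cells per delta cell were 1.36 (1.25 to 1.48) and 1.21 (1.07 to 1.38) in the control libraries on normal and high-fat diet. They were 0.453 (0.367 to 0.557) in the batch 2 cKO normal-diet and 0.680 (0.512 to 0.899) in the cKO high-fat library. Cluster 2 thus lay lower per delta cell in both cKO libraries. The log2 ratios of cKO over control were -1.58 (-1.90 to -1.27) on normal diet and -0.84 (-1.27 to -0.40) on the high-fat diet. Other denominators gave other values. Per PP cell the ratios were -1.32 (-1.75 to -0.89) on normal diet and -0.44 (-1.08 to 0.19) on the high-fat diet. Per beta cell they were 0.97 (0.65 to 1.29), the opposite direction, and -1.39 (-1.72 to -1.05).

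Cluster 8 cells per delta cell were 0.678 (0.613 to 0.751) and 0.567 (0.483 to 0.664) in the control libraries. The batch 2 cKO normal-diet library had 0.628 (0.520 to 0.756), inside that range, and the cKO high-fat library 0.305 (0.207 to 0.439), below it. The log2 ratio of cKO over control was -0.11 (-0.41 to 0.19) on normal diet and -0.90 (-1.46 to -0.33) on the high-fat diet. In the cKO high-fat library both clusters thus lay lower per delta cell, whereas for the batch 2 library only the interval of cluster 2 excluded 0. Per PP cell the high-fat log2 ratio of cluster 8 was -0.50 (-1.23 to 0.23), an interval that includes 0. The next SDs are again over libraries that differ in diet, not over replicates. Of alpha, delta and PP cells, cluster 2 was 24.7% ± 7.89 (SD, n = 2) in cKO and 39.6% ± 0.904 (SD, n = 2) in control libraries (exact permutation p = 0.333, adjusted p = 0.583). Cluster 8 was 20.1% ± 9.15 and 19.1% ± 1.34 (exact permutation p = 1). Of clusters 2, 8, 4 (delta) and 11 (PP), the interval of this share excluded 0 in 50% for genotype on the high-fat diet and 75% on normal diet. It did so in 0% for diet in control and 50% in cKO mice.

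**Figure D2:**
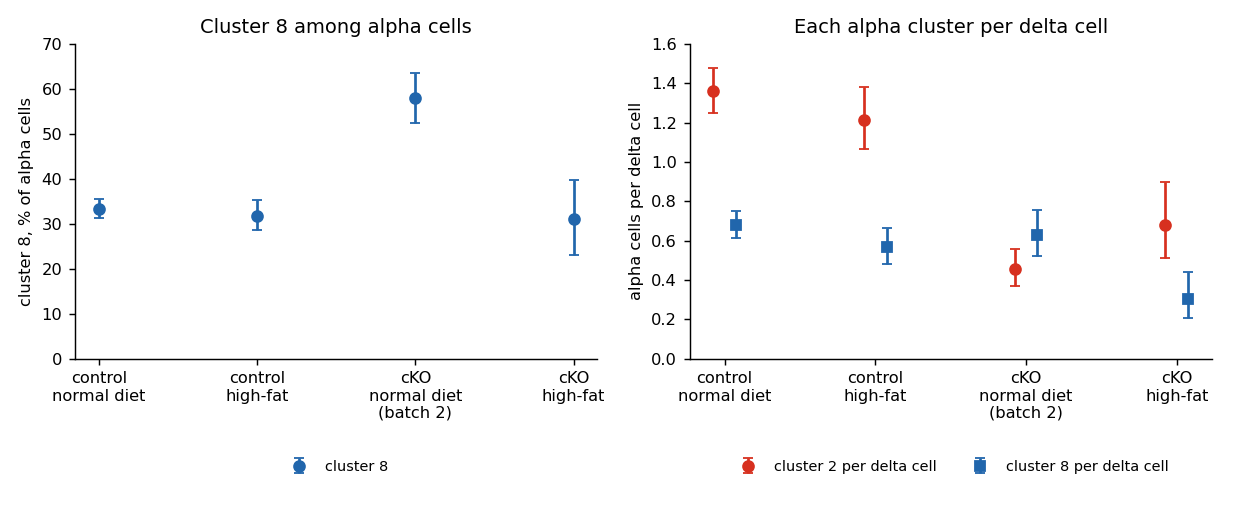
Left, cluster 8 as a percentage of alpha cells in each library; right, cells of alpha clusters 2 and 8 per delta cell. Points are libraries and bars are exact 95% counting intervals; the cluster 8 share is 58.1% in the cKO normal-diet library of batch 2 and between 31.0% and 33.3% in the others.

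As a share of all cells, both alpha clusters were lower on the high-fat diet. Cluster 2 was 16.1% of cells in the control normal-diet and 7.90% in the control high-fat library, and cluster 8 was 8.01% and 3.69%. Their log2 ratios were alike, at -1.02 (-1.16 to -0.88) and -1.12 (-1.33 to -0.91). In cKO mice cluster 2 was 13.1% in the batch 2 normal-diet and 3.50% in the high-fat library, and cluster 8 was 18.1% and 1.57%. The intervals excluded 0 for 85.7% of the 14 clusters for diet in control mice and for 84.6% of 13 in cKO mice. They did so for 92.3% and 100% of 13 clusters for genotype on normal and high-fat diet. In both alpha clusters all 4 intervals excluded 0, which is near these background values. Lower calls were 50% and 46.2% of clusters for diet in control and cKO mice, and 76.9% for genotype on the high-fat diet, where both alpha clusters were lower. For genotype on normal diet 46.2% were lower, with cluster 2 among them at a log2 ratio of -0.30 (-0.53 to -0.06), and 46.2% higher, with cluster 8 among them at 1.18 (0.96 to 1.39). The mean alpha share of all cells in the cKO normal-diet group was 15.6% ± 22.0 (SD, n = 2), from 0 of 40 and 322 of 1033 cells. Over all 5 libraries the exact permutation p was 0.8 for genotype and 0.6 for diet, where 10 splits give no p below 0.1.

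In the deposited embedding the alpha cells formed a single arc. UMAP places cells with similar profiles near each other, but its distances are not distances in expression, and the clusters and the embedding come from the same cells. The values below therefore describe the picture and test nothing. Cluster 2 formed the right limb of the arc and cluster 8 its crest and left limb. The smallest distance between a cluster 8 and a cluster 2 cell was 0.00546. It was below the median distance of 0.0433 from an alpha cell to its nearest alpha cell. This is a single pair of cells and does not by itself show that no gap separated the clusters. The centroids were 6.11 apart, and the root mean square distance to the own centroid was 2.04 in cluster 2 and 3.07 in cluster 8.

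The contact between them was short. Only 80 alpha cells (2.54%) had a cell of the other cluster as their nearest alpha cell, and 367 (11.7%) had both clusters among their 30 nearest alpha cells. The mean silhouette width, which is 1 for well separated and 0 for touching groups, was 0.60 in cluster 2 and 0.37 in cluster 8. It was negative for 1 cell of cluster 2 and for 107 cells (9.61%) of cluster 8. Among the 30 nearest cells of any type, 78.5% of the neighbours of cluster 2 cells were of cluster 2 and 1.76% of cluster 8. For cluster 8 cells, 84.2% were of cluster 8 and 3.55% of cluster 2.

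**Figure D3:**
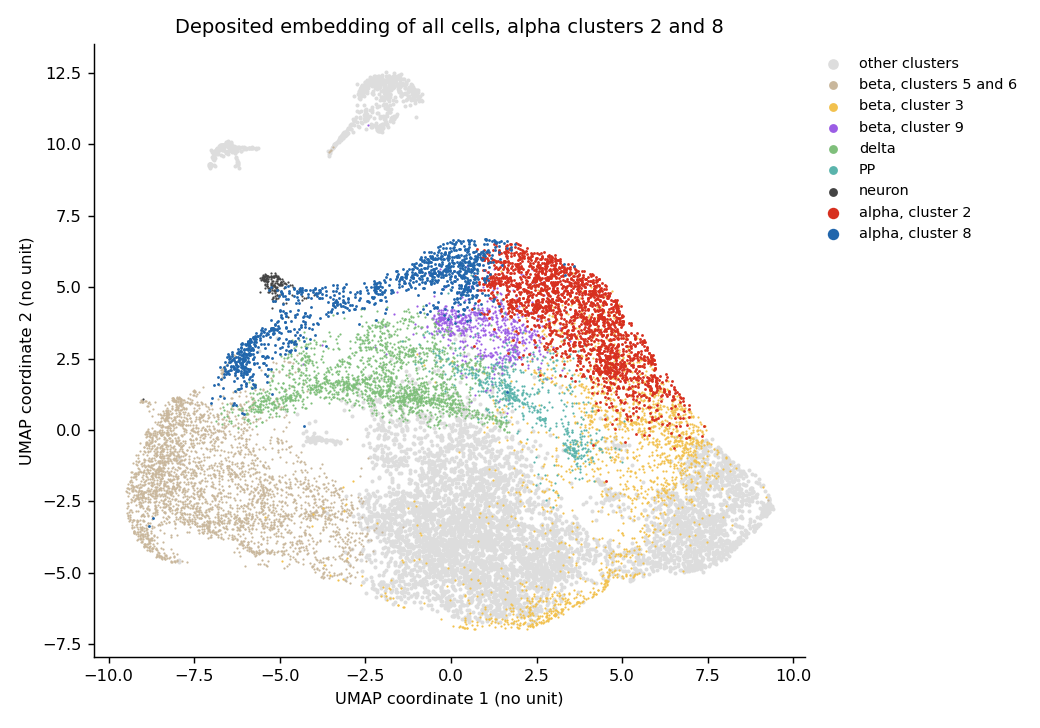
All 18221 cells in the deposited embedding (UMAP coordinates, no unit), with alpha clusters 2 and 8, their neighbouring clusters and all other clusters in grey. The 2033 cells of cluster 2 and 1113 cells of cluster 8 meet at the crest of 1 arc; cluster 2 runs down into beta cluster 3, and cluster 8 runs past delta cells and neurons toward beta clusters 5 and 6.

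Other cell types lay closer to cluster 2 than cluster 8 did, and the neighbours of the clusters differed. Beta cluster 3 gave 15.2% of the neighbours of cluster 2 cells, beta cluster 9 gave 3.43%, cluster 8 gave 1.76% and PP cells gave 0.974%. Delta cells gave 0.041% of the neighbours of cluster 2 cells. Beside cluster 8 cells, cluster 2 gave 3.55%, beta cluster 9 gave 3.53%, delta cells 3.08%, beta cluster 6 2.12% and neurons 2.04%. Beta cluster 3 was nearly absent there, at 0.00898%. Neurons are 155 of all cells, and their share beside cluster 8 was 2.40 times their share of all cells. By centroid, cluster 2 was nearest to beta cluster 9 (2.71), PP cells (3.13) and beta cluster 3 (5.15), and the other alpha cluster (6.11) came after them. Cluster 8 was nearest to delta cells (2.75), neurons (2.82) and beta cluster 9 (3.52).

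Alpha cells were about as well set apart from other types as delta cells. Of their 30 nearest neighbours 82.9% were alpha cells, against 82.8% of the same type for delta, 92.0% for beta and 58.6% for PP cells. In all, 264 alpha cells (8.39%) had mostly cells of other types around them. These were 173 of cluster 2 (8.51%, 7.33 to 9.81%) and 91 of cluster 8 (8.18%, 6.63 to 9.94%).

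The neighbours differed between stretches of the arc. The limits below were chosen after the embedding was seen. Of cluster 8 cells with a first coordinate below -5, 84.8% of the neighbours were of cluster 8, 7.55% of beta cluster 6, 3.41% delta cells and 2.15% of beta cluster 5. Between -5 and -2, delta cells were 8.12% and neurons 7.24%. From -2 on, cluster 2 was 6.97% and beta cluster 9 was 6.91%. Thus the left limb borders beta cells, the middle stretch delta cells and neurons, and the crest cluster 2 and beta cluster 9. In cluster 2, the share of beta cluster 3 among the neighbours was 3.81% where the second coordinate was 4 or more, 19.4% between 2 and 4, and 49.6% below 2. At its lower end cluster 2 was therefore as much surrounded by beta cluster 3 as by its own cells, at 48.4%.

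**Figure D4:**
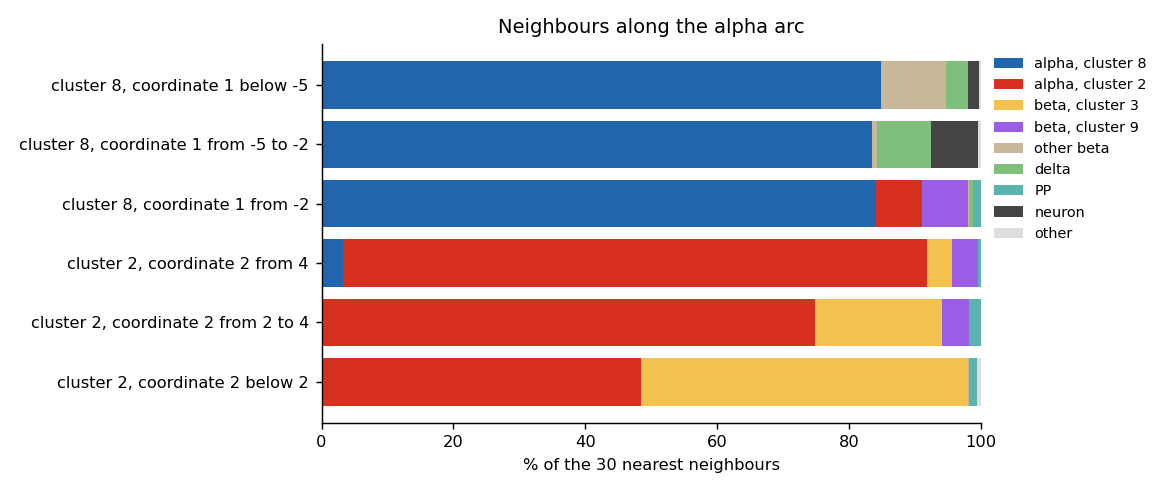
Percentage of the 30 nearest neighbours from each class (horizontal axis), for 6 stretches of the alpha arc from the left end of cluster 8 to the lower end of cluster 2, all libraries together. The share of beta cluster 3 goes from 3.81% to 49.6% down cluster 2, and no stretch of cluster 8 has more than 8.12% delta cells.

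The cluster 3 beta cells beside cluster 2 came mostly from the cKO high-fat library. Of the beta cluster 3 neighbours of control normal-diet cluster 2 cells, 72.9% were cells of the cKO high-fat library, which holds 44.8% of cluster 3. Cells of the control high-fat library were 13.4% of these neighbours but 43.6% of cluster 3. The same excess of cKO high-fat cells held beside cluster 2 cells of the control high-fat (73.3%), batch 2 cKO normal-diet (68.9%) and cKO high-fat (61.7%) libraries. When neighbours were taken from the own library alone, 94.1% of the neighbours of control normal-diet cluster 2 cells were alpha, against 76.7% with all libraries. In the control high-fat library the values were 93.1% and 88.1%. The cKO libraries went the other way, with 54.4% alpha and 45.6% beta cells among own-library neighbours on the high-fat diet, against 87.3% alpha with all libraries. On normal diet (batch 2) 74.5% were alpha, against 79.8%. These libraries hold 87 and 135 cluster 2 cells, against 527 and 1284 in the control libraries on the same diets. Whether these cell numbers bear on the lower alpha share was not tested. The control normal-diet library itself held 8.72% of cluster 3.

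The alpha cells of the control normal-diet library reached further along both limbs of the arc than those of the other libraries. In cluster 8 the median first coordinate was -3.91 (quartiles -5.90 and -0.24) there. The control high-fat library had -0.48 (-3.63 and 0.38), the batch 2 cKO normal-diet library -0.87 (-3.41 and 0.43) and the cKO high-fat library -0.78 (-3.10 and 0.29). Cells below -5 were 42.6% (38.7 to 46.5%) of cluster 8 in the control normal-diet library and 8.54% (5.36 to 12.8%) in the control high-fat library. They were 5.35% (2.59 to 9.61%) in the cKO normal-diet library of batch 2 and 0 of 39 in the cKO high-fat library, which allows up to 7.69% by the limit of 3 counts (9.03% by the exact interval). Of the 304 cells of this left limb, 273 were from the control normal-diet library. The shares depended on the limit. In the same order of libraries they were 49.6%, 22.0%, 20.3% and 10.3% below -4, and 19.8%, 3.66%, 1.07% and 0% below -6. The control normal-diet library had the highest share at each of these limits.

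The mean positions gave the same order. The centroids of cluster 8 in the control normal-diet library and each of the others were 2.08 to 2.21 apart, which is 0.73 to 0.85 of the root mean square spread within libraries. The centroids of the 3 other libraries lay 0.10 to 0.21 from each other, or 0.05 to 0.10 of that spread. The control high-fat and both cKO libraries were thus alike in position within cluster 8, although they differ in genotype, diet and batch. Within cluster 8 a diet shift was thus seen in control but not in cKO mice, and a genotype shift on normal but not on the high-fat diet; these differences were not tested.

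In cluster 2 the median second coordinate was higher in both high-fat than in both normal-diet libraries. Its median was 3.47 (quartiles 2.26 and 4.70) in the control normal-diet and 4.16 (2.98 and 5.16) in the cKO normal-diet library of batch 2. It was 4.88 (4.18 and 5.46) in the control high-fat and 4.85 (4.32 and 5.31) in the cKO high-fat library. Cells at or above 4 were 39.6% (37.0 to 42.4%) and 54.8% (46.0 to 63.4%) of cluster 2 on normal diet, in control and cKO mice. They were 80.5% (76.8 to 83.8%) and 85.1% (75.8 to 91.8%) on the high-fat diet. In the second coordinate both high-fat libraries thus lay higher than both normal-diet libraries, and the intervals of these shares did not overlap. The median first coordinate had no such order. In control and cKO mice it was 4.29 and 3.00 on normal diet, and 2.93 and 3.28 on the high-fat diet. Cells with a second coordinate below 2, at the end bordering beta cluster 3, were 19.5% (17.4 to 21.8%) and 10.4% (5.79 to 16.8%) on normal diet. They were 0.759% (0.207 to 1.93%) and 5.75% (1.89 to 12.9%) on the high-fat diet. With a limit of 3 these shares were 42.1% and 25.9% on normal diet and 5.88% and 5.75% on the high-fat diet. With a limit of 1 they were 5.61% and 2.22%, and 0% in both high-fat libraries. The centroids of the high-fat libraries were 0.342 apart (0.23 of the spread). Those of the control libraries were 1.73 apart (0.97) and those of the cKO libraries 0.655 apart (0.39). The normal-diet libraries were 1.05 apart (0.54), farther than the 2 diets within cKO mice.

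**Figure D5:**
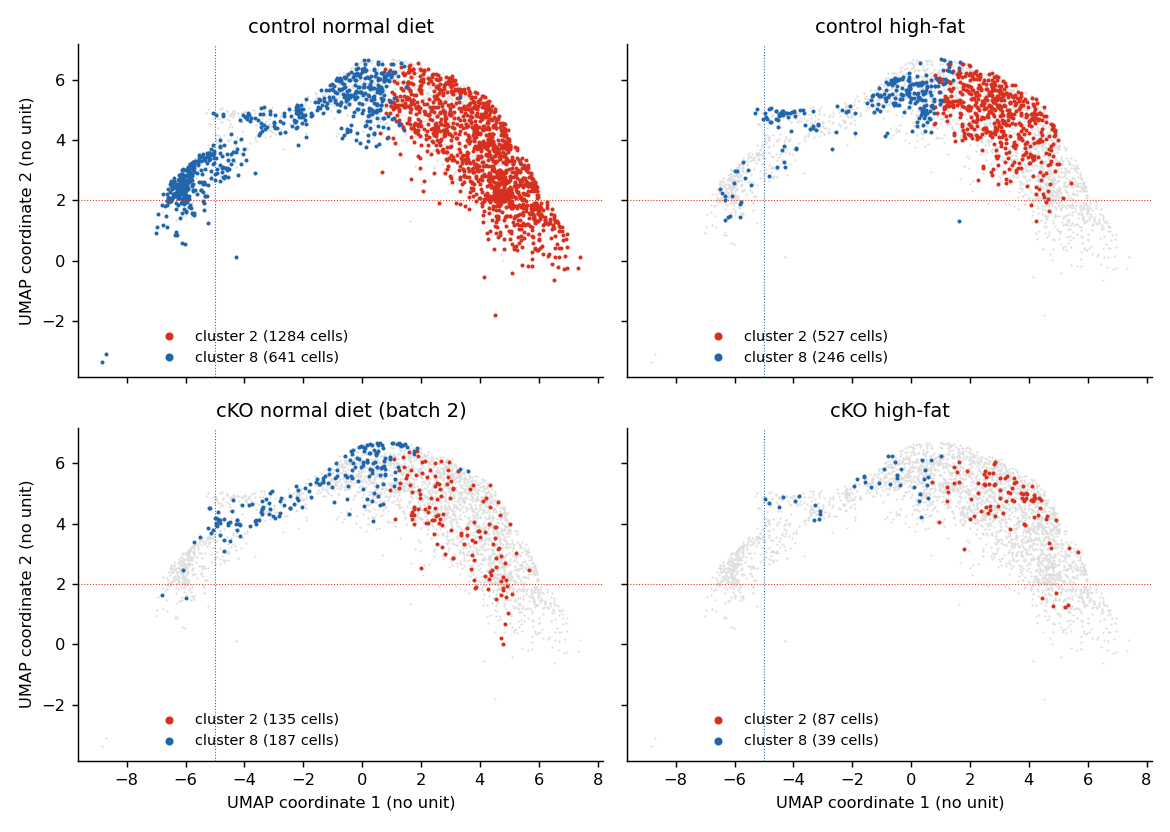
Alpha cells of each library in the deposited embedding (UMAP coordinates, no unit; red, cluster 2; blue, cluster 8; grey, alpha cells of all libraries). Dotted lines mark a first coordinate of -5 and a second coordinate of 2; 273 of the 304 cluster 8 cells left of -5 and 251 of the 274 cluster 2 cells below 2 are from the control normal-diet library.

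Other endocrine types shifted between libraries as well. Between the control normal-diet and control high-fat libraries the centroid distance was 0.75 of the within-library spread in PP cells, 0.24 in delta cells and 0.18 in all beta cells, against 0.97 in alpha cluster 2 and 0.73 in alpha cluster 8. For PP cells the control normal-diet and cKO high-fat libraries were 1.06 apart on this scale. Positions of alpha cells are therefore read beside shifts of like size in PP cells, and the part of library effects was not tested.

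The neighbours by library followed the positions. In cluster 2, beta cluster 3 gave 19.4% of the neighbours in the control normal-diet and 12.5% in the batch 2 cKO normal-diet library. It gave 6.93% in the control high-fat and 7.70% in the cKO high-fat library. Cells with mostly non-alpha neighbours were 141 of 1284 (9.32 to 12.8%) and 13 of 135 (5.23 to 15.9%) on normal diet in control and cKO mice. They were 3.04% (1.75 to 4.88%) and 3.45% (0.717 to 9.75%) on the high-fat diet. With neighbours of the own library alone, 35 of 87 cluster 2 cells in the cKO and 10 of 527 in the control high-fat library had mostly non-alpha neighbours. With a fixed number of neighbours, a library with few alpha cells reaches other types more readily. These own-library values therefore do not compare like with like. In cluster 8, beta clusters 5 and 6 gave 4.28% of the neighbours in the control normal-diet library and at most 0.799% in the others. Neurons gave 0.572% there, 5.01% in the control high-fat, 2.57% in the batch 2 cKO normal-diet and 4.87% in the cKO high-fat library. Of the 155 neurons, 118 were from the control high-fat and 12 from the control normal-diet library. With neighbours of the own library alone, neurons gave 0.629%, 4.81%, 1.28% and 13.6% in the same order of libraries. The last value rests on 39 cluster 8 cells and has the same limit.

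Neighbouring alpha cells shared a library more often than an even mixture would give. The observed over expected share of own-library cells among the 30 nearest alpha cells was 1.12 in the control normal-diet and 1.46 in the control high-fat library. It was 1.83 in the batch 2 cKO normal-diet and 1.66 in the cKO high-fat library. These ratios depend on library size, and with 126 alpha cells drawn from each library they were 1.46, 1.16, 1.28 and 1.27 in the same order. With equal numbers the alpha cells of the control normal-diet library were the most set apart. Alpha cells of the 2 high-fat libraries were mixed with each other, with ratios of 1.15 and 1.13 for each other's cells. Against the control normal-diet library their ratios were 0.77 and 0.74. Delta cells drawn in equal numbers had own-library ratios of 1.33, 1.29, 1.40 and 1.32, so own-library neighbours were not particular to alpha cells.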

How the data were processed

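The authors deposited 4 tables that give each cell a library, a cell type, a cluster number and 2 UMAP coordinates. The deposited coordinates are scores without a unit, centred on 0, and none of the tables holds counts per gene. Cell Ranger 7.1.0 and the GRCm39 genome are named per the submitters' processing notes, and the libraries used the 10x Genomics 5′ chemistry per the labels' protocols. How cells were filtered, doublets treated, libraries integrated, and cells clustered and annotated is not given here, and these steps set which cells are called alpha. Doublets were not called here.

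Tables were joined on the cell identifier, and library names were matched to sample titles by genotype, diet and number. Depth per cell is unknown here, so cell numbers set the precision. Nearest neighbours, silhouettes and exact tests were computed with scikit-learn 1.9.0 and SciPy 1.17.1 in Python 3.11.15, and the scripts were tested on simulated data. No p-value was computed from cells. Comparisons needed at least 20 cells. Alternatives covered denominators, odds ratios, neighbour numbers, equal numbers of cells, purity of neighbourhoods and leaving out libraries. No gene was named from values; the clusters named are alpha clusters 2 and 8 and the clusters nearest to them. Members, measures and alternatives were chosen with earlier results of these data known.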

Additional observations from a re-analysis of the deposited data

Results flagged for a closer look

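Of 20 pairs of effects compared over 10 measures, 9 had opposite directions in the 2 groups, and none of these differences was tested, since each group had 1 library with alpha cells. In each, the cKO normal-diet value comes from the batch 2 library.

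For the cluster 8 share of alpha cells, the genotype effect was positive on normal and negative on high-fat diet, and the effects differed by -25.6 percentage points; the high-fat effect alone was within counting error. For the cluster 2 share of alpha, delta and PP cells, the diet effect was negative in control and positive in cKO mice, a difference of 12.4 percentage points; the control effect alone was within counting error. For the cluster 8 share of the same cells, the genotype effect was positive on normal and negative on high-fat diet, a difference of -11.0 percentage points; the counting interval of the high-fat effect included no difference. Alpha cells per PP cell went down with the high-fat diet in control and up in cKO mice, a difference of 0.713; the interval of the ratio of diet ratios included 0.

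The median first coordinate of cluster 2 had opposite diet effects, at -1.36 in control and 0.28 in cKO mice. Its genotype effects were also opposite, at -1.29 on normal and 0.36 on high-fat diet. The difference was 1.64 in both. The median second coordinate of cluster 2 had genotype effects of 0.69 on normal and -0.03 on high-fat diet, a difference of -0.73. In cluster 8 the median first coordinate had genotype effects of 3.04 on normal and -0.30 on high-fat diet, a difference of -3.35. Its median second coordinate had diet effects of 1.16 in control and -0.03 in cKO mice, a difference of -1.19. The effects of -0.03 and -0.30 were small beside their counterparts, and no interval was computed for medians.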

How the results depend on the processing

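Of 81 alternative values for the main results, 22 moved past the counting interval of the reported value and 3 reversed. Reversed means a changed sign where the reported interval excluded 0. Where the reported interval included 0, a changed sign was not counted as reversed. The other 56 lay within that interval or, where 1 library was left out, kept their sign or stayed within 1 SD between libraries. Where 1 library was left out, this outcome was fixed in advance and lends no support. The compared groups of libraries did not overlap, so the sign could not change. Either library of a pair always lies within 1 SD of their mean. The wide ranges are given below. Where a denominator or scale was changed, the construction itself changes the value, and otherwise the cause was not tested. The 3 reversals concern the alpha share of alpha, delta and PP cells. On normal diet (cKO over control) its log2 ratio was 0.43 over all endocrine cells and 0.37 over all cells, and on the high-fat diet it was 0.34 with types by neighbour majority. The other values over all endocrine and over all cells were -1.02 and -1.05 for diet in control mice, -2.69 and -2.62 for diet in cKO mice, -1.24 and -1.19 for genotype on the high-fat diet, and -1.67 and -1.57 for the ratio of diet ratios. Types by neighbour majority gave -0.17 for diet in control mice, 0.56 for diet in cKO mice and 0.73 for the ratio of diet ratios. The reported values were -0.06 (-0.28 to 0.16) for diet in cKO mice and 0.02 (-0.21 to 0.26) for the ratio of diet ratios. The sign thus also changed for diet in cKO mice with types by neighbour majority. For the ratio of diet ratios it changed over all endocrine and over all cells. Odds ratios gave -0.19 for diet in control mice and -0.85 and -0.77 for genotype on normal and high-fat diet.

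For the cluster 8 share of alpha cells, odds ratios gave -1.63 for diet in cKO mice, 1.47 for genotype on normal diet and -1.53 for the ratio of diet ratios. With only alpha cells of at least 90% alpha neighbours, from all libraries, diet in control mice gave -0.60 (-0.79 to -0.41). This interval excluded 0, and genotype on normal diet gave 0.47. The ratio of diet ratios gave -0.45 (-0.91 to 0.01), which then included 0. Equal numbers of cells gave own-library neighbour ratios of 1.46 (control, normal diet), 1.16 (control, high-fat) and 1.28 (cKO, normal diet, batch 2).

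Leaving out 1 library gave -15.5 to -12.3 percentage points for the genotype difference in the alpha share and -26.7 to -1.91 for the diet difference in the cluster 8 share. The alpha share of all cells in the cKO normal-diet group was 0 to 31.2% with 1 of its libraries. No paired analysis was possible because each group had 1 library with alpha cells. The 39 cluster 8 cells of the cKO high-fat library and the absence of alpha cells among 40 cells limit precision.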

Other observations

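The border of the 2 alpha clusters was unequally filled. Alpha cells with both clusters among their 30 nearest alpha cells were 8.47% (7.26 to 9.80%) of alpha cells in the control normal-diet library. They were 16.4% (13.9 to 19.2%) in the control high-fat, 18.3% (14.3 to 23.0%) in the batch 2 cKO normal-diet and 14.3% (8.69 to 21.6%) in the cKO high-fat library.

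Alpha cells with mostly other types around them lay in few places. Of the 173 such cells of cluster 2, beta cluster 3 was the leading neighbour of 127 and beta cluster 9 of 40. Of the 91 such cells of cluster 8, the leading neighbour was beta cluster 9 for 28, delta cells for 26, beta cluster 6 for 15 and neurons for 14. In the other direction, 38.6% (26.0 to 52.4%) of the 57 cluster 3 beta cells from batch 2 (cKO, normal diet) and 23.8% (21.0 to 26.7%) of the 879 from the cKO high-fat library had mostly alpha neighbours. In the control libraries the values were 15.8% (10.7 to 22.1%) of 171 on normal diet and 2.11% (1.25 to 3.31%) of 855 on the high-fat diet.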
